A study of Mus musculus with 6 samples.

Results

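MHC class I molecules display peptides from inside the cell at its surface, and 10 genes of this route are described here in lens tissue at 0 h and 24 h after removal of the lens fiber cells. They are the heavy chain genes H2-K1 and H2-D1, the light chain gene B2m, the peptide transporter genes Tap1 and Tap2, the tapasin gene Tapbp, the immunoproteasome genes Psmb8, Psmb9 and Psmb10, and the regulator gene Nlrc5. They were chosen by symbol, with no measured value in the rule, but with earlier results of these data known. The set was thus not blind to the data. All 10 were found among the 24147 gene lines of the count tables and among the 13956 genes with enough counts to test. All 10 also exceeded the count filter's CPM minimum in each 0 h library, so none was tested only because of its 24 h counts.

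The tissue was lens capsule with its attached lens epithelial cells from wild type C57BL/6 mice aged 2 months. Both groups had undergone the operation, a mouse model of cataract surgery in which the fiber cells are taken out through a cut in the cornea. Capsules were collected directly afterwards (0 h, 3 libraries) or 24 h later (3 libraries), so the 0 h group is not unoperated lens. The series calls the samples biological triplicates, and the sources used here do not state the number of animals or eyes per library. If the libraries were not from separate animals, the p-values measure only the spread between these libraries.

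In the class I route, the proteasome cuts cytosolic proteins, TAP carries the peptides into the endoplasmic reticulum, and tapasin with its partners helps to load them onto a heavy chain paired with beta-2 microglobulin. CD8 T cells and natural killer cells read the finished complex. Interferons, NF-kB and the transactivator NLRC5 are known to raise these genes in many cell types, and the lens is known as a tissue with little contact with immune cells.

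Promoter sequence is shown because 3 of the genes, H2-K1, H2-D1 and B2m, carry several textbook class I promoter elements in 1 window; H2-K1 and B2m are printed at length. Sequences are RefSeq windows of GRCm38.p6, 5′ to 3′ on the gene's strand, and capitals mark motif matches. The first is chr17:34000348-34000583 on the minus strand, with the NF-kB consensus, the CREB element TGACG and the CCAAT box (read as ATTGG) in that order. The next is chr2:122147437-122147685 on the plus strand, with the interferon-stimulated response element (ISRE, 2 copies of GAAA with 2 bases of any kind between them) ahead of the same 3 elements.
H2-K1: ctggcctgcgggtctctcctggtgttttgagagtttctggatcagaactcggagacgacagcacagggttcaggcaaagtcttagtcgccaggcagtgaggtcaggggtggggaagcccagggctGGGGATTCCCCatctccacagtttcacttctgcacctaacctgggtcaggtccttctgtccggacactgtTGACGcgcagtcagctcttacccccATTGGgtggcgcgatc
B2m: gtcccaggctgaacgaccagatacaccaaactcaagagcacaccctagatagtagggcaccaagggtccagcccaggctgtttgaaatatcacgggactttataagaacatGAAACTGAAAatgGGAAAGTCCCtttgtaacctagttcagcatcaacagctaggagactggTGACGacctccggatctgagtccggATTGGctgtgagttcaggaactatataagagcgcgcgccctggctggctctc

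Short stretches of 3 further windows are shown for comparison. H2-D1 (chr17:35262913-35262942, plus strand) holds the same NF-kB match as H2-K1, and 29 of the 30 bases equal those of H2-K1. Tap1 and Psmb9 lie head to head, so the stretch at chr17:34187457-34187486, printed on the plus strand, belongs to both windows and carries TGACG. Psmb8 (chr17:34198087-34198116, plus strand) carries the STAT element TTCNNNGAA.
H2-D1: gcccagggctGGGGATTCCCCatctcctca
Tap1 and Psmb9: gcccagagacaggTGACGacagagggtcct
Psmb8: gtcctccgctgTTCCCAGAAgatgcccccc

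The windows of 8 of the 10 genes were in the table used; Tap2 and Nlrc5 had no entry. Both strands were searched, and a gene with overlapping matches of a motif was counted once. NF-kB matches occurred in H2-K1, H2-D1 and B2m against 8.46% of 32817 windows of 300 bases. TGACG occurred in 5 of the 8 (H2-K1, H2-D1, B2m, Tap1 and Psmb9) against 20.8% of windows, and the CCAAT box in those 5 and Tapbp against 37.4%. The windows of Tap1 and Psmb9 overlap, and both genes share the same TGACG and CCAAT sites. These sites were counted for each gene, so Tap1 and Psmb9 are not separate cases. An exact match of the ISRE letters was found only in B2m of these genes (3.43% of windows), and of TTCNNNGAA only in Psmb8 (8.29%). Only exact letters were searched, so looser forms of an element were missed. The lack of a match in H2-K1 or another gene thus does not show that it has no interferon element. Psmb10 held none of the 5 motifs in its window. A match describes the letters and is not evidence of a bound site.

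At 24 h, 9 of the 10 genes were higher than at 0 h and none was lower, by edgeR's quasi-likelihood test at a Benjamini-Hochberg adjusted p under 0.05. Over all genes tested, 15.2% were called higher and 13% lower, and these shares are the background for each list below. The gene not called was Psmb9, with an adjusted p of 0.0523. In all 10, each 24 h library lay above each 0 h library, which held for 22.9% of genes tested (44.7% when separation in either direction is counted). The rise was at least 2-fold for 9 genes (10.8% of genes tested), with Tapbp below that size. The median log2 fold change was 1.82, beside -0.03 over all genes tested. Tested against a 1.5-fold change instead of against 0, 8 of the 10 were still called higher (Tapbp and Psmb9 were not), against 7.6% of genes tested.

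**Figure D1:**
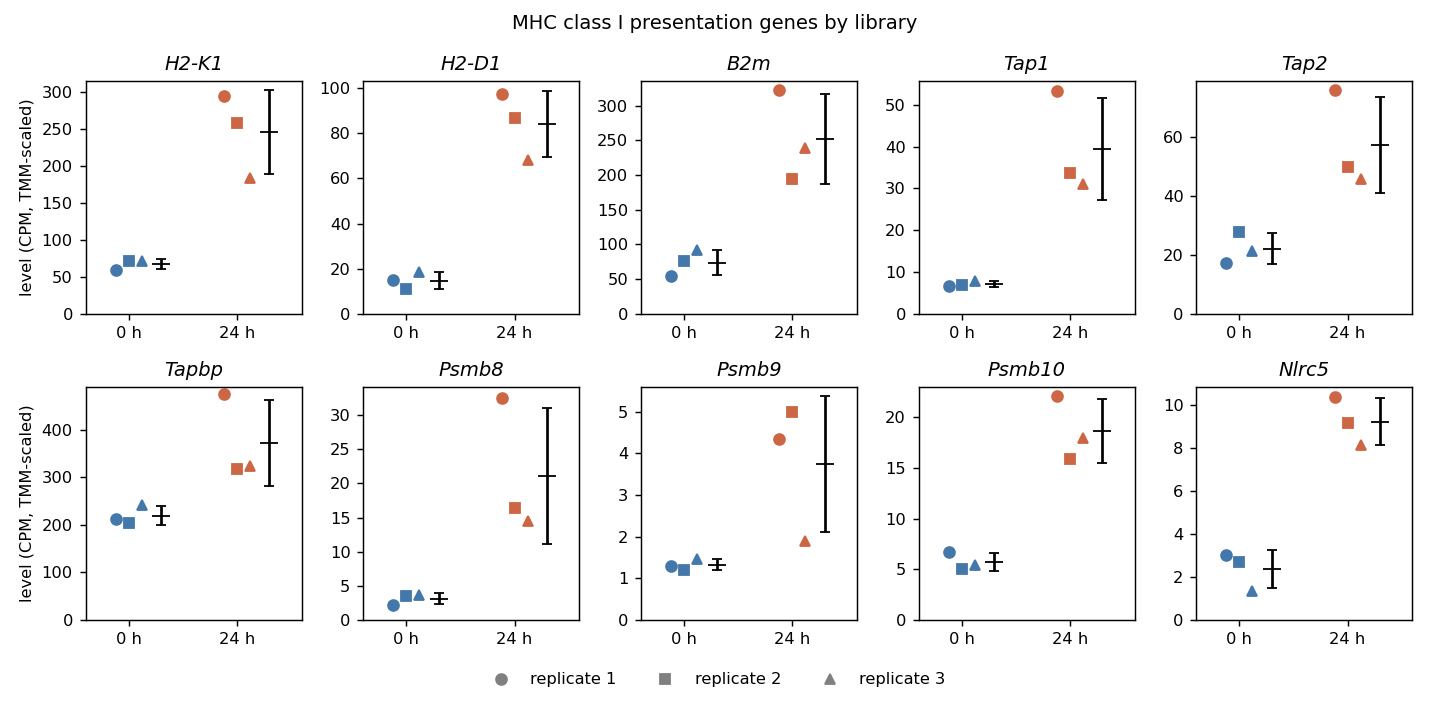
Expression of the 10 class I presentation genes in library-scaled counts (CPM, linear axis from 0, a separate scale for each gene). Points are libraries at 0 h and 24 h, and bars are mean ± SD of 3 libraries; every gene's 24 h points stand above its 0 h points.

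The heavy chains bind the peptide and give the class I molecule its identity. H2-K1 (chr17:33996012-34000333, mm10) stood at 59.7, 71.7 and 71.3 CPM (counts relative to library size, scaled by TMM) in replicates 1 to 3 at 0 h and at 295, 258 and 183 CPM at 24 h. The log2 fold change was 1.86 ± 0.20 (SE, 95% interval 1.41 to 2.31, adjusted p = 0.000369), a 3.63-fold rise. H2-D1 (chr17:35263094-35267497) stood at 14.7, 10.8 and 18.3 CPM at 0 h and at 97.3, 86.8 and 68.2 CPM at 24 h, a log2 fold change of 2.53 ± 0.22 (SE, adjusted p = 0.000168). In both genes replicate 1 was the highest and replicate 3 the lowest of the 24 h libraries, and even that lowest library was far above the 0 h range.

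Heavy chain genes are near-copies of each other, so how reads were divided among them is uncertain. Of all 50-base stretches in their GENCODE transcripts, 14.3% for H2-D1 and 8.79% for H2-K1 recurred in transcripts of another gene. The line for H2-L lies inside the H2-D1 line and held 0 to 4 counts per library. How reads that fit both lines were treated is not stated. The low H2-L counts thus do not show that H2-D1 lost few reads, and its level may be undercounted. The sum over 20 heavy chain lines does not depend on how the counted reads were divided among these lines. Any reads left uncounted because they fit several lines are missing from the sum too, so it settles only part of the problem. It was 92.0, 109 and 115 CPM at 0 h and 489, 421 and 302 CPM at 24 h. The summed level rose 3.77-fold, with no overlap (exact two-sided permutation test p = 0.1, the smallest that 3 against 3 libraries allow). Counted as 1 gene in the edgeR test, the sum gave a log2 fold change of 1.94 with an adjusted p of 0.000371. H2-K1 and H2-D1 together held 75.5% to 83.2% of it in each library.

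B2m (chr2:122147687-122153082), the light chain shared by the class I heavy chains, stood at 54.4, 75.5 and 91.1 CPM at 0 h and at 322, 194 and 238 CPM at 24 h. It rose by a log2 fold change of 1.77 ± 0.25 (SE, 95% interval 1.21 to 2.33, adjusted p = 0.00125), with replicate 1 again the highest. Its line overlaps those of Patl2 and a microRNA gene. It is on another chromosome than the heavy chains, and the intervals of B2m and H2-K1 overlapped over most of their length.

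TAP is a transporter made of 1 TAP1 and 1 TAP2 chain. Tap1 (chr17:34187556-34197225) stood at 6.51, 6.81 and 7.81 CPM at 0 h and at 53.3, 33.7 and 31.0 CPM at 24 h, a log2 fold change of 2.48 ± 0.25 (SE, 95% interval 1.91 to 3.05, adjusted p = 0.00028). Tap2 (chr17:34204479-34216321) stood at 17.1, 27.7 and 21.4 CPM at 0 h and at 76.0, 49.8 and 45.8 CPM at 24 h, a log2 fold change of 1.37 ± 0.25 (SE, 95% interval 0.81 to 1.93, adjusted p = 0.00408). Of the exonic bases of Tap2 in GENCODE, 18.5% overlap Gm15821 and Gm20496 on the opposite strand, and 212 exonic bases of Tap1 overlap Psmb9 there. In both TAP genes, replicate 1 stood well above the other 24 h libraries, which were close to each other.

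Tapasin bridges TAP and the empty class I molecule. Tapbp (chr17:33919478-33929290) had the highest CPM of the 10 genes at both times: 213, 203 and 242 CPM at 0 h, and 476, 318 and 323 CPM at 24 h. Its rise was the smallest of the 10, at a log2 fold change of 0.76 ± 0.19 (SE, 95% interval 0.32 to 1.20, adjusted p = 0.0189). Without 0 h replicate 1 or 0 h replicate 2 it missed the threshold, with adjusted p = 0.0504 and 0.0654, and over all alternatives its adjusted p ran from 0.00101 to 0.307. In GENCODE, 29.0% of its exonic bases also belong to other genes, among them Zbtb22 on the same strand.

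The immunoproteasome subunits replace the 3 catalytic subunits of the standard proteasome and shift which peptides are cut. Psmb8 (chr17:34198195-34201454) showed the largest rise of the 10 genes. It stood at 2.20, 3.51 and 3.66 CPM at 0 h and at 32.6, 16.4 and 14.5 CPM at 24 h, a 6.75-fold rise (log2 fold change 2.76 ± 0.38, SE, 95% interval 1.88 to 3.63, adjusted p = 0.00127). In CPM difference, though not in fold, replicate 1 was about as far above the other 24 h libraries as those were above 0 h. The size of the rise is loosely fixed, and without that library the log2 fold change was 2.34. Of the exonic bases of Psmb8 in GENCODE, 14.7% overlap Gm20496 on the opposite strand, and the sources used here do not say how strand was counted.

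Psmb10 (chr8:105935728-105938392), the subunit coded outside the MHC, stood at 6.71, 5.01 and 5.37 CPM at 0 h and at 22.1, 15.9 and 18.0 CPM at 24 h. Its log2 fold change was 1.71 ± 0.24 (SE, adjusted p = 0.00127). Psmb9 (chr17:34182099-34187330) was the least abundant of the 10 by CPM, with 13, 12 and 12 counts at 0 h and 34, 47 and 18 counts at 24 h. These counts equal 1.30, 1.20 and 1.46 CPM at 0 h and 4.35, 4.99 and 1.90 CPM at 24 h. The log2 fold change was 1.49 ± 0.49 (SE, 95% interval 0.37 to 2.62), and the gene missed the threshold only narrowly. Its 24 h replicate 3 lay close to the 0 h libraries; without that library the gene was called, at 1.82 with adjusted p = 0.022, and over all alternatives the adjusted p ran from 0.022 to 0.165.

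NLRC5 is the transactivator that joins the factors bound at class I promoters. Nlrc5 (chr8:94472763-94527272) had 30, 27 and 11 counts at 0 h and 81, 86 and 77 counts at 24 h, or 3.01, 2.71 and 1.34 CPM and 10.4, 9.13 and 8.14 CPM. It rose by a log2 fold change of 1.95 ± 0.37 (SE, 95% interval 1.11 to 2.79, adjusted p = 0.00517). Its 24 h libraries were close to each other, while 0 h replicate 3 was below the other 0 h libraries.

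**Figure D2:**
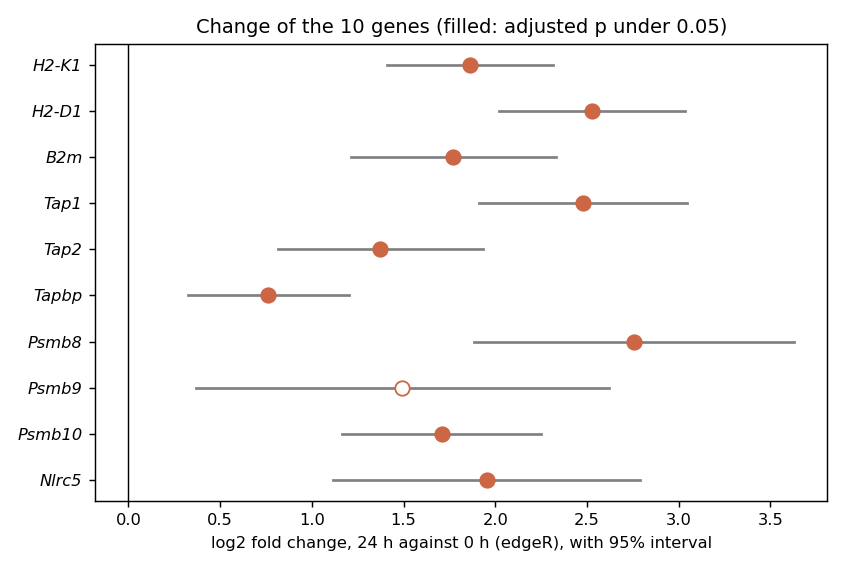
Log2 fold change (24 h over 0 h) of each of the 10 genes with its 95% interval; filled points have an adjusted p under 0.05 in edgeR's quasi-likelihood test. All 10 intervals lie above 0, and the points run from 0.76 for Tapbp to 2.76 for Psmb8, and the open point is Psmb9.

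To compare levels between genes, counts were divided by gene length (RPKM, which is CPM per kilobase of the deposited gene length). At 0 h the order was B2m (85.9 ± 21.5 RPKM, SD, n = 3), Tapbp (79.8 ± 7.36), H2-K1 (41.1 ± 4.13), Tap2 (8.85), H2-D1 (8.42), Psmb10 (4.49), Psmb8 (2.55), Tap1 (2.39), Psmb9 (1.64) and Nlrc5 (0.339). The tapasin transcript was thus far more abundant than either TAP transcript at 0 h. Neighbours in this order whose libraries overlapped were B2m and Tapbp, Tap2 and H2-D1, and Psmb8 and Tap1. The place of H2-D1 is uncertain at both times, because its reads may be undercounted.

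At 24 h the order by length-scaled level was B2m (293 ± 75.8 RPKM, SD, n = 3), H2-K1 (149 ± 34.6), Tapbp (135 ± 32.7), H2-D1 (48.4), Tap2 (22.97), Psmb8 (17.3), Psmb10 (14.7), Tap1 (13.3), Psmb9 (4.65) and Nlrc5 (1.33). H2-K1 and Tapbp now overlapped, as did Tap2 and Psmb8, Psmb8 and Psmb10, and Psmb10 and Tap1. H2-D1 had moved above Tap2 with no overlap. Among all genes tested, the CPM rank of H2-K1 moved from 2862 to 483 and that of B2m from 2589 to 466, so both came to stand among the more abundant transcripts of the tissue.

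Ratios within a library do not depend on library scaling, and show only whether paired genes changed unequally. The H2-K1 to H2-D1 count ratio was 4.05, 6.63 and 3.89 at 0 h and 3.03, 2.98 and 2.69 at 24 h. This ratio depends on how reads of these near-copies were counted. The Tap1 to Tap2 count ratio rose from 0.380, 0.246 and 0.366 to 0.702, 0.676 and 0.677, so the chains of the transporter drew closer in counts. For the head-to-head pair, Tap1 counts were 5, 5.67 and 5.33 times those of Psmb9 at 0 h and 12.3, 6.74 and 16.3 times at 24 h. The libraries of the times did not overlap in any of these 3 pairs, which were chosen after their values were seen (exact two-sided permutation test p = 0.1 for each, also 0.1 after Benjamini-Hochberg adjustment, the smallest possible).

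Each immunoproteasome subunit was also set against the standard subunit whose place it takes, per gene length. Psmb8 amounted to 4.62%, 12.1% and 10.2% of Psmb5 at 0 h and to 91.7%, 41.7% and 29.5% at 24 h, 5.82-fold higher with no overlap. Psmb10 amounted to 8.34%, 9.93% and 9.43% of Psmb7 at 0 h and to 31.4%, 20.7% and 21.5% at 24 h, 2.61-fold higher with no overlap. Psmb9 amounted to 3.31%, 4.46% and 5.14% of Psmb6 at 0 h and to 11.4%, 10.8% and 4.80% at 24 h, where replicate 3 fell within the 0 h range. Exact two-sided permutation tests gave p = 0.1, 0.1 and 0.2, and 0.15, 0.15 and 0.2 after Benjamini-Hochberg adjustment over the 3 ratios.

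The standard subunits were not called: the log2 fold change was 0.14 for Psmb5 (95% interval -0.36 to 0.64, adjusted p = 0.678), 0.39 for Psmb6 (-0.01 to 0.79, 0.137) and 0.30 for Psmb7 (-0.13 to 0.73, 0.274). These intervals still allow a modest rise, and without 0 h replicate 1 Psmb6 and Psmb7 were called, at 0.61 and 0.55 with adjusted p = 0.0305 and 0.0366. In all 6 libraries the standard subunit remained the more abundant transcript of each pair per length.

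**Figure D3:**
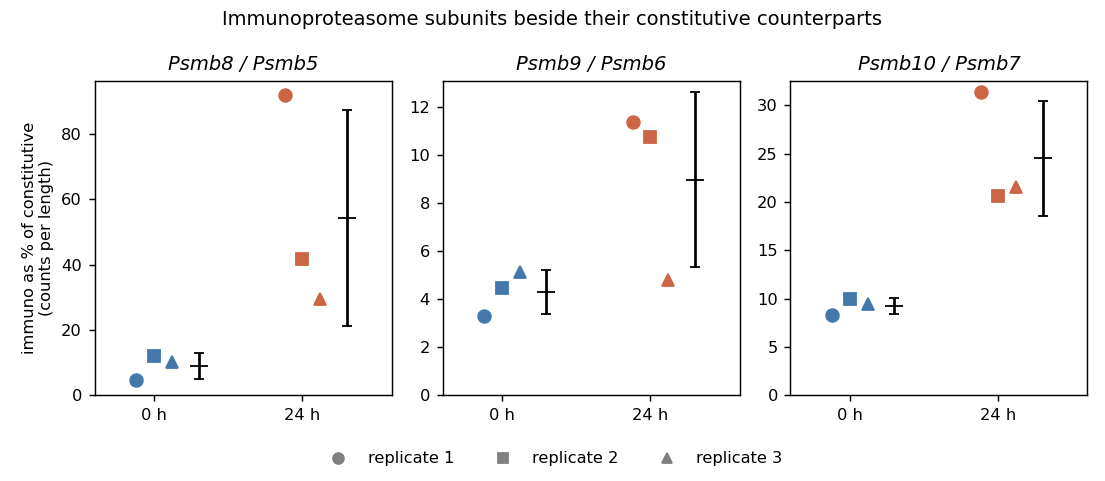
Level of each immunoproteasome subunit as a percentage of its standard counterpart (counts per gene length), per library at 0 h and 24 h, with bars for the mean. The Psmb8 to Psmb5 points spread from 29.5% to 91.7% at 24 h, and 1 of the 3 Psmb9 to Psmb6 points at 24 h stays at the 0 h level.

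The other genes of the route were read from 5 lists, to be set against the 15.2% of all tested genes called higher and 13% called lower. A gene low at 0 h could be tested only through its 24 h counts, which favours a call of higher, so such genes are named. Of 22 other class I and class I-like heavy chains, 10 could be tested: 4 rose and 4 fell, with a median log2 fold change of 0.92. Those that rose were H2-Q4, H2-Q5, H2-T23 and H2-T24, of which H2-Q5 and H2-T23 did not reach the count filter's CPM minimum in every 0 h library (H2-Q5 in none). H2-Q4 rose from 13.2 ± 2.26 to 39.1 ± 14.2 CPM (SD, n = 3, adjusted p = 0.00444), and H2-T23, the Qa-1 chain that natural killer cell receptors read, from 2.34 ± 1.35 to 13.0 ± 5.29 CPM (0.00667). Those that fell were Mr1, Cd1d1, Fcgrt and Hfe, which have the class I fold but do not serve TAP-dependent peptide display: they present small metabolites or lipids, carry IgG, or take part in iron control. These falls were lost, down to 0 of 4, without 0 h replicate 3 or without 24 h replicate 1, numbered 1 without 0 h replicate 1, and numbered 2 if 0 h replicate 2 or 24 h replicate 2 was left out. The rises were down to 2 without 0 h replicate 1 or 0 h replicate 2. In the files 5 of the 22 were at 0 counts in all libraries, among them H2-Q6 to H2-Q9, whose near-identical copies overlap.

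Of 12 peptide loading and trimming genes, 5 rose and none fell, with a median of 0.49. Calr and Hspa5, chaperones of the endoplasmic reticulum that serve many proteins besides class I, had the lowest p: Calr rose from 364 ± 50.0 to 916 ± 126 CPM (SD, n = 3, adjusted p = 0.00127) and Hspa5 from 420 ± 58.5 to 1257 ± 305 CPM (0.00131). The others that rose were Pdia3, Thop1 and Sec61a1. Erap1, which trims peptides for class I, was not called, at 0.60 with adjusted p = 0.0548.

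Of 19 genes of the proteasome core and its activators, 10 rose and none fell, with a median of 0.50. Psma5 rose by 0.93 (adjusted p = 0.00401) and the activator subunit Psme2, known to be raised by interferon, by 0.85 (0.00521). Its partner Psme1 was not called, at 0.27 with adjusted p = 0.156. The count of 10 depended on single libraries: leaving out 0 h replicate 2 gave 4, and 5 were called without 0 h replicate 3, 24 h replicate 2 or 24 h replicate 3.

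The 28 genes of interferon signalling and class I transcription factors gave 25 that could be tested, of which 15 rose and 1 (Rfxap) fell, with a median of 0.58. Of the 15, Socs1 was below the filter's minimum in at least 1 library at 0 h. Nfkb1, an NF-kB subunit, rose from 30.7 ± 2.69 to 98.0 ± 8.97 CPM (SD, n = 3, adjusted p = 0.00012) and Stat2, which carries signals of type I interferon, from 25.3 ± 1.39 to 82.0 ± 20.2 CPM (0.000553). Irf1, a direct activator of class I genes, rose by 1.30 (0.00145). The ligand genes Ifng and Ifnb1 had 0 counts in all 6 libraries, which allows up to 0.276 to 0.372 CPM per library, counting error only. The Rfxap call was lost without any 1 of the libraries other than 24 h replicate 1.

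Of 10 genes listed as receptors and partners of class I, only 3 had enough counts to test, and these were called higher. They were Pirb and Lilrb4, inhibitory receptors of myeloid cells, and Cd274, which codes for PD-L1 and not for a receptor of class I. A place on the list is not evidence that Lilrb4 binds class I. The listed T cell and natural killer cell receptors had too few counts to test, so these 3 calls do not describe class I receptors as a group. Pirb and Lilrb4 passed the filter only through their 24 h counts, so their calls were largely set by the filter. Lilrb4 rose from 0.963 ± 0.542 to 17.7 ± 3.96 CPM (SD, n = 3, adjusted p = 0.00023) and Cd274 from 8.37 ± 1.80 to 35.2 ± 16.6 CPM (0.00498). Cd8a, part of the T cell coreceptor for class I, was near the detection floor at both times (mean 0.519 CPM at 0 h and 0.659 CPM at 24 h).

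**Figure D4:**
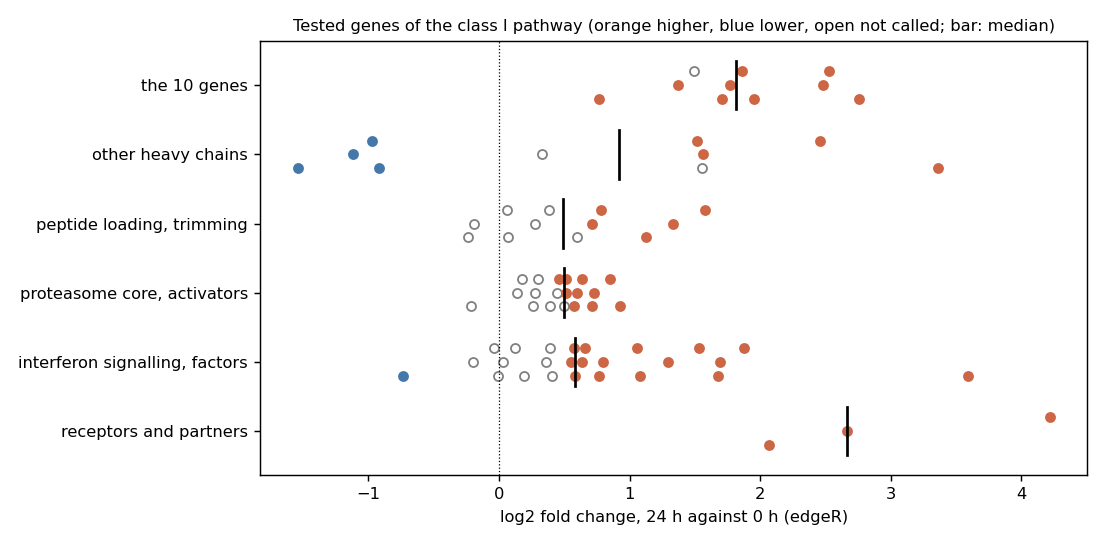
Log2 fold change (24 h over 0 h) of the tested genes in the 10-gene set and in the 5 lists of related genes, 1 point per gene. Orange points were called higher, blue points lower and open points were not called, and the bar is each list's median, 1.82 for the 10 genes and 0.50 for the proteasome core.

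The 24 h libraries differed among themselves in a pattern shared by most of the 10 genes. Replicate 1 was the highest 24 h library for 9 of the 10 and replicate 3 the lowest for 7. Of all genes called higher, 22.3% were highest in that replicate 1. That library also had 15.4% of its counts on the ribosomal precursor Rn45s, against at most 5.04% in the other 24 h libraries and 2.44% to 3.45% at 0 h. The part of that share in the spread was not tested, but without the library 9 of the 10 genes were still called higher, with a median log2 fold change of 1.68. With Rn45s and the crystallins removed before scaling, all 10 were called.

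Leukocytes also express class I genes strongly, and in whole tissue a change in the number of cells of a type cannot be told apart from a change in RNA per cell. The summed level of 5 markers of all leukocytes was 13.3 to 32.7 CPM at 0 h and 37.1 to 86.8 CPM at 24 h, and 3 of the 5 were called higher, of which Coro1a and Cd52 passed the filter through 24 h counts. Cd53 rose (mean 3.36 to 17.3 CPM) while Laptm5 did not pass the test (12.8 and 16.3 CPM). The 7 neutrophil markers found were called higher, 5 of them (S100a8, S100a9, Retnlg, Mmp9 and Itgam) after passing the filter only through 24 h counts, so that count is partly set by the filter. Their summed level went from 8.02 to 16.7 CPM summed at 0 h to 113 to 215 CPM at 24 h, led by Csf3r (mean 1.98 to 37.6 CPM) and Itgam (37.3 CPM at 24 h). Among 24 h libraries these markers ran the other way from most of the 10 genes: all 5 leukocyte markers were highest in replicate 3, and both summed levels were lowest in replicate 1. The part of these cells in the rise of the class I genes was not tested.

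Markers of other cell types were checked as well. T and natural killer cell markers summed to 1.30 to 2.20 CPM at 0 h and 0.634 to 2.2 CPM at 24 h, with 4 of 11 at 0 counts in all libraries and none reaching the count filter. Of 10 macrophage markers 1 rose (Cd68) and 3 fell (Csf1r, Mrc1 and Cx3cr1). Of 5 tested markers of cells with MHC class II, 1 rose (Itgax, which passed the filter through 24 h counts), while Cd74, with means of 26.1 and 46.0 CPM at the earlier and later time, did not pass the test. The lens crystallin Cryaa and other lens epithelial markers were abundant at both times, summing to 85159 to 144387 CPM at 0 h and 52588 to 66047 CPM at 24 h, nearly all of it from the crystallins Cryaa and Cryab. Of the 6, Cryab, Foxe3 (mean 83.0 to 28.3 CPM) and Fgfr3 (309 to 106 CPM) fell, and the median log2 fold change was -1.03. Markers of lens fibers were also present, and all 6 fell, Crygs from a mean of 6728 to 2037 CPM. Endothelial markers summed to 13.2 to 38.3 CPM at 0 h and 22.1 to 42.8 CPM at 24 h, which overlap. In 24 h replicates 1 to 3 the sum was 42.8, 22.1 and 25.1 CPM, highest in replicate 1 as for most of the 10 genes. By gene, 2 of the 5 endothelial markers were highest in replicate 1, 1 in replicate 2 and 2 in replicate 3. Of 4 tested, Pecam1 and Cdh5 (mean 0.623 to 8.29 CPM) rose, both after passing the filter through 24 h counts, and the most abundant, Kdr, was not called (24.9 and 11.8 CPM). The summed level of ciliary, pigmented and retinal markers was 1104 to 3000.3 CPM at 0 h and 505 to 2389 CPM at 24 h. Of the 6, 1 rose (Mlana, which did not reach the filter's minimum in every 0 h library). Another 1 fell (Rpe65, which did not reach it in every 24 h library). Among 24 h libraries, 5 of these 6 were highest in replicate 1, while their sum was 1549, 2389 and 505 CPM in replicates 1 to 3. Of 3 tested corneal markers Aldh3a1 fell (mean 874 to 429 CPM), while Krt5 and Krt12 had means of 1.07 and 0.871 CPM at 0 h. Whether the Aldh3a1 RNA came from cornea was not tested. Krt5 and Krt12 were called higher, but neither reached the filter's minimum in every 0 h library, and their libraries overlapped. At 24 h Krt5 stood at 25.2, 0.637 and 34.3 CPM, with replicate 2 inside the 0 h range. The part of these tissues in the class I values was not tested.

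**Figure D5:**
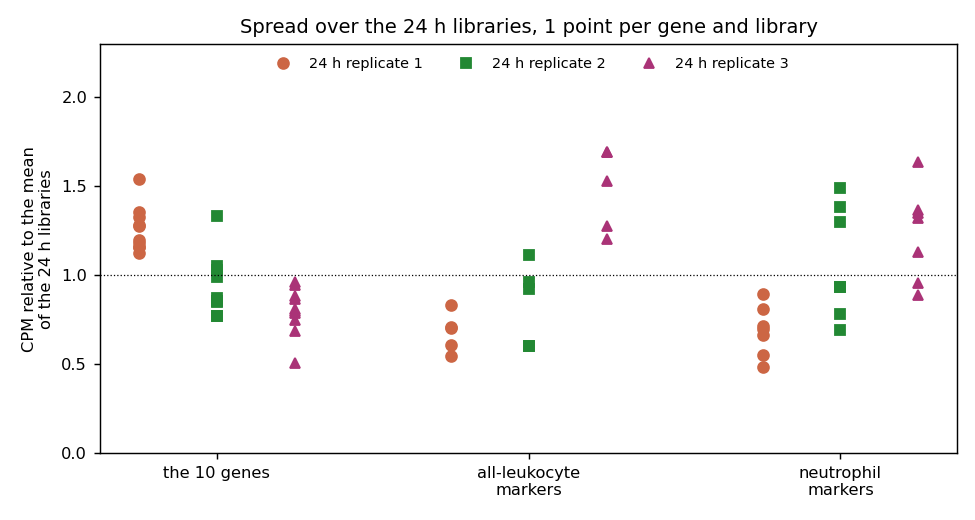
CPM in each 24 h library relative to the mean of the 3 24 h libraries, 1 point per gene and library, for the 10 genes, 5 all-leukocyte markers and 7 neutrophil markers. The 10 genes lie at 1.12 to 1.54 in replicate 1 and at 0.508 to 0.962 in replicate 3, while the all-leukocyte markers lie at 0.548 to 0.833 in replicate 1 and at 1.21 to 1.69 in replicate 3.

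Other genes were ranked by how closely their log2 CPM followed the mean standardised profile of the 10 genes over the 6 libraries, as a description. Of 9691 genes with enough expression, the 5 most alike were Trio (Pearson r = 0.999), Gbp2 (0.997), Rrp12 (0.997), Nolc1 (0.997) and Irf7 (0.994). Trio, the most alike, had a mean of 83.3 CPM at 0 h and 135 CPM at 24 h. Rrp12 went from a mean of 13.7 to 41.2 CPM and Nolc1 from 28.8 to 50.9 CPM. Gbp2, an interferon-induced GTPase, had a mean of 13.4 CPM at 0 h and 103 CPM at 24 h. Irf7, an interferon regulatory factor, had a mean of 4.65 and 55.9 CPM. In each of the 5, 24 h replicate 1 was the highest library. A high r was common, since 411 genes were above 0.95 and all share the libraries and the difference between times.

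On the genome, 7 of the 10 genes lie on chromosome 17 in the MHC region. Psmb9, Tap1, Psmb8 and Tap2 follow each other within 34.2 kb (chr17:34182099-34216321) with no other gene line between them, and these deposited lines put Psmb9 and Tap1 225 bases apart. In GENCODE, whose transcripts reach further, the pair overlap by 212 exonic bases. Although adjacent, they differed in size of rise, from 2.59-fold for Tap2 to 6.75-fold for Psmb8, and Psmb9 was the only one of them not called. The 3 genes elsewhere, B2m on chromosome 2 and Psmb10 and Nlrc5 on chromosome 8, rose 3.41-fold, 3.27-fold and 3.87-fold.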

How the data were processed

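RNA was extracted with an RNeasy kit from 6 libraries of lens capsule and sequenced on an Illumina instrument; the labels name both a plain and a stranded TruSeq kit. The submitters' processing notes list the build mm10, the aligner TopHat2 2.1.0, the counter HTSeq 0.6.1p1 and edgeR 3.16.5, beside FastQC, SAMtools 1.4 and Trim Galore 0.4.4. Which annotation was used and how strand was handled are not stated there. The authors deposited whole-number counts per gene for each library, with position and length (per the file headers). Their deposited RPKM values equal count over length over library total and were not used in tests.

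Summed counts were 8069314 to 10862573 per library with 16248 to 16962 genes detected, and 5444 of 24147 lines had 0 counts throughout. A floor of 3 counts equals 0.276 to 0.372 CPM, counting error only.

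Genes were filtered with filterByExpr defaults, scaled by TMM and tested without covariates by the two-sided quasi-likelihood test of edgeR 4.0.16 under R 4.3.3, with Benjamini-Hochberg adjustment over 13956 genes. Every adjusted p for a gene is from this test unless another is named. SE is the log2 fold change over the square root of F. RPKM per library was computed from counts, deposited length and TMM-scaled size.

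The rule for naming genes took the 10 genes, Psmb5, Psmb6, Psmb7, Irf1, the 2 lowest p in each pathway list, the 2 highest CPM in each marker list and the 5 genes most alike. Some genes under this rule are not reported here. Any other gene named was picked with its values in view. The 10 genes and all lists were chosen with earlier results of these data known. Alternatives were DESeq2 1.42.0, limma-voom 3.58.1, RLE and upper-quartile factors, library totals, no count filter, a test against a 1.5-fold change, a replicate block and each library left out. Leaving out Rn45s and the crystallins was added after seeing the data.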

Additional observations from a re-analysis of the deposited data

How the results depend on the processing

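Over 15 alternatives, 8 to 10 of the 10 genes were called higher and none lower. The count was 8 under the 1.5-fold test and when 0 h replicate 1 or 0 h replicate 2 was left out. Under the 1.5-fold test Tapbp stayed at 0.76 but lost its call (adjusted p = 0.307), and ran from 0.59 to 0.87 with 1 library left out. Psmb9 became called with DESeq2 (1.51, adjusted p = 0.034), with library totals (1.58, 0.0478) and without Rn45s and the crystallins (1.53, 0.0499), and ran from 1.23 to 1.82 with 1 library left out. The summed heavy chains, at 1.91 with no call possible in the permutation test, passed the threshold as 1 feature in edgeR (1.94).

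Against a 1.5-fold change, 1060 genes were called higher and 629 lower, and the lists gave 0 falls among other heavy chains, 3 rises in peptide loading, 0 in the proteasome core and 6 in interferon signalling. The fall in interferon signalling went to 0 there, with library totals and with no count filter, and ran from 0 to 1 with 1 library left out. Leaving out 1 library gave 1041 (without 0 h replicate 3) to 1648 genes lower, 2 to 5 rises and 0 to 4 falls among other heavy chains, and 4 to 14 rises in the proteasome core. Psmb5 turned to -0.019 without 0 h replicate 2 and to -0.0017 without 24 h replicate 3, and reached 0.38 without 0 h replicate 1.

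With a replicate block, 9 of the 10 genes were called higher, Psmb9 stood at 1.42 (adjusted p = 0.0721), and 2315 genes were higher and 2174 lower. The deviations of same-numbered libraries from their time's mean correlated with r of 0.0866, 0.215 and 0.397. For differently numbered libraries r ran from -0.35 to 0.172. These values do not exclude a structure shared by same-numbered libraries, and the main test did not take the numbers as pairs. Low counts of Psmb9 and Nlrc5 limit their precision.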

Other observations

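Of the other 9 gene lines within 100 kb of the stretch from Psmb9 to Tap2, 5 could be tested, and none was called by edgeR or limma-voom, while DESeq2 called Brd2; 2 had an unadjusted p under 0.05 in edgeR (Brd2 and H2-Aa). They are mostly MHC class II genes, which serve display of peptides from outside the cell. H2-Aa stood at 5.55 ± 1.54 CPM at 0 h and 9.37 ± 2.46 CPM at 24 h (SD, n = 3). H2-Ab1 stood at 5.81 ± 2.27 and 6.26 ± 2.06 CPM, and H2-DMb1, which helps to load class II, at 8.34 ± 1.54 and 5.83 ± 2.35 CPM. These genes were chosen after their values were seen, and the difference between their changes and those of the 4 class I genes beside them was not tested.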
